A study of Mus musculus with 55 samples.

Results

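Transcripts of splicing factors and nuclear RNA-binding proteins were followed through 5 stages of B cell development in mouse bone marrow, each a sorted population. A gene was taken as a member when its symbol in the array annotation began with Srsf, Snrp, Hnrnp, Sf3 or U2af (or the older Sfrs and Hnrp), and it was measured by its brightest probe set. The rule found 37 of the 6137 genes that had a probe set of their own, with 51 of 13069 probe sets. They were 8 Srsf genes, 8 Snrp genes, 7 Sf3 and U2af genes and 14 Hnrnp genes. A further 8 probe sets that carried several symbols were left out.

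The arrays were Affymetrix oligonucleotide arrays of 2 designs with different probe sets, here the first set and the b set. Total RNA for the arrays came from 6 preparations of pre-BI cells (B220+ c-kit+) and 5 each of large and small pre-BII cells (B220+ CD25+, no surface immunoglobulin). There were also 5 preparations each of immature B cells (B220low, surface IgM+) and mature B cells (B220hi, surface IgM+). Each preparation carries a number from 1 to 3 or from 8 to 11 in its title, here called its sort number. The labels used here give no strain, age or genotype. They do not say what the number stands for or whether preparations came from separate animals. The p-values thus measure the spread between preparations. Pre-BI and large pre-BII cells are early, dividing precursors, small pre-BII cells have left the cell cycle and rearrange light chain genes, and immature and mature B cells carry surface IgM.

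Splicing removes introns from a new transcript. The U1, U2, U4, U5 and U6 small nuclear ribonucleoproteins (snRNPs) carry it out, each made of an RNA, a protein ring and proteins of its own. The ring is made of Sm proteins (several Snrp genes), in U6 of LSm proteins (Lsm genes). SR proteins (Srsf genes) bind exons and help to recruit the snRNPs, the U2AF dimer and the SF3A and SF3B complexes settle U2 at the 3′ splice site and branch point, and hnRNP proteins coat the transcript and often oppose SR proteins. In B cells, alternative processing of this kind decides, for example, between membrane and secreted immunoglobulin and between isoforms of CD45.

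The promoters of 5 members that fell between pre-BI and mature B cells are shown first, the 3 that fell from large to small pre-BII cells and the other 2 SR protein genes, so that their levels can be read beside their regulatory sequence. Each line is the 250 bases before the RefSeq start of the gene (GRCm38.p6), 5′ to 3′ on the gene's strand. Hnrnpab lies at chr11:51606882-51607131 (minus strand), Srsf4 at chr4:131873387-131873636 (plus strand), Snrpe at chr1:133610281-133610530 (minus strand), Srsf2 at chr11:116853095-116853344 (minus strand) and Srsf3 at chr17:29032410-29032659 (plus strand). Capitals mark matches, on either strand, to CCAAT (the CCAAT box), GGGCGG (the GC box), CCGGAAG (an ETS core), GCGGGAA (an E2F core), CACGTG (an E box) or TATAAA (the TATA box). Adjacent matches can run together.
Hnrnpab: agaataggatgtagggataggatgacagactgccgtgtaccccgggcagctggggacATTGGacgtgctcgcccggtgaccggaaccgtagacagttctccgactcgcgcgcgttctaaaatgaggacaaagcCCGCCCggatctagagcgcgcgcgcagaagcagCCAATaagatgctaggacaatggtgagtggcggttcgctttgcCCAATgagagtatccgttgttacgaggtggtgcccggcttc
Srsf4: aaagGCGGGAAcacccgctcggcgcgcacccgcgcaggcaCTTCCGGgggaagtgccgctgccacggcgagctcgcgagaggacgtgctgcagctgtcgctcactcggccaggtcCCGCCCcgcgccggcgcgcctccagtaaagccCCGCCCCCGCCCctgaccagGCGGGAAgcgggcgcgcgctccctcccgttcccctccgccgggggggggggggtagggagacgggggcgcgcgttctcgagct
Snrpe: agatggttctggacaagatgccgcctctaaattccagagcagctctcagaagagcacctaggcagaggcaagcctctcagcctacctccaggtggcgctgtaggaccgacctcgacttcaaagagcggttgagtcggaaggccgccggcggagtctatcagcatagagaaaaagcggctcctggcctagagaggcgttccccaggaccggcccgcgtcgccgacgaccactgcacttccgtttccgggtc
Srsf2: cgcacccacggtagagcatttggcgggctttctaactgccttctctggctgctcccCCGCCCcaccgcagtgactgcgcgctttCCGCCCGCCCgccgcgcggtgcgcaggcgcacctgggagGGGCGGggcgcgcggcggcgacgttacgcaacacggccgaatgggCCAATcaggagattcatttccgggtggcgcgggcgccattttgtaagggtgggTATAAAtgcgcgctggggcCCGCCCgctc
Srsf3: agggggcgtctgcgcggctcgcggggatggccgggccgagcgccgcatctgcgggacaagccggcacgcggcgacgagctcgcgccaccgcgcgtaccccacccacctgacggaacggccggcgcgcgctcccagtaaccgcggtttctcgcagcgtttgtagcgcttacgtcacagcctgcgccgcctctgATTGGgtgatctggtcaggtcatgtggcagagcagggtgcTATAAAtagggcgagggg

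The Hnrnpab window held 3 CCAAT matches and 1 GGGCGG match, and the Srsf4 window held 3 GGGCGG, 2 GCGGGAA and 1 CCGGAAG match. Srsf2 had 5 GGGCGG matches, 1 CCAAT and 1 TATAAA match, and Srsf3 had 1 CCAAT and 1 TATAAA match. The letters of none of the 6 motifs were in the Snrpe window. A window was found for 32 of the 37 members, and 1 per gene was used. The shares of all windows take every window, with no such choice and no limit to genes on the arrays. Member counts and these shares are thus not like for like. GGGCGG occurred in 20 of these 32 windows and in 32.7% of all 32851 windows of the table, CCAAT in 15 and in 33.8%, and CCGGAAG in 10 and in 6.91%. GCGGGAA occurred in 4 of the 32 and in 3.82% of all windows, CACGTG in 2 and in 6.02%, and TATAAA in 5 and in 12.4%. Among the 8 members with a window that fell from pre-BI to mature B cells, 3 held CCAAT, 5 GGGCGG, 3 CCGGAAG, 1 GCGGGAA, 0 CACGTG and 2 TATAAA. Among the other 23 tested members with a window these counts were 12, 14, 7, 3, 2 and 3. A match describes letters and is no evidence of binding.

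Levels below are quantile-normalised intensities, which compare populations for 1 gene and not genes with each other. From the negative values of the arrays, a noise limit was set, 251 for the first set and 319 for the b set. Of the 37 members, 20 lay above it in all 26 preparations, 15 in some, and Snrpa1 and U2af2 in none. The filter on low values passed 34 members, all but Snrpa1, U2af2 and Hnrnpll. "Fell" and "rose" are used for an adjusted p under 0.05 (limma, adjusted over all 10229 probe sets tested). Log2 differences and folds of single genes are between means of log2 values raised to the noise limit, with their SE. In bulk preparations, fewer cells of a type and less RNA per cell cannot be told apart.

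Every member past the threshold in a comparison between stages was lower at the later one. Over the 5 populations, 10 of 34 members varied by limma's moderated F test, against 14.8% of all probe sets tested. All 10 were among the 28 members whose mean lay above the noise limit, and 29.5% of all such bright probe sets varied, so the share was close to that of other bright probe sets. The 10 were Srsf2, Srsf3, Srsf4, Snrpb, Snrpb2, Snrpc, Snrpe, Snrpg, Hnrnpab and Hnrnpu, that is 3 of 8 tested Srsf, 5 of 7 Snrp, 0 of 6 Sf3 and U2af and 2 of 13 Hnrnp genes. Within sorts 1 to 3 alone 1 member varied, and within sorts 8 to 11 alone 7 did. The 7 include Sf3b2 (adjusted p = 0.0439 by limma's F test), which is not among the 10. The highest population mean was that of large pre-BII cells in 15 of 34 members, of pre-BI cells in 7, of small pre-BII cells in 7 and of immature B cells in 5. It was that of mature B cells in 0 of 34, where 22.2% of all probe sets tested had theirs, and 19 of 34 members had their lowest mean there, against 19.7% of all.

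**Figure D1:**
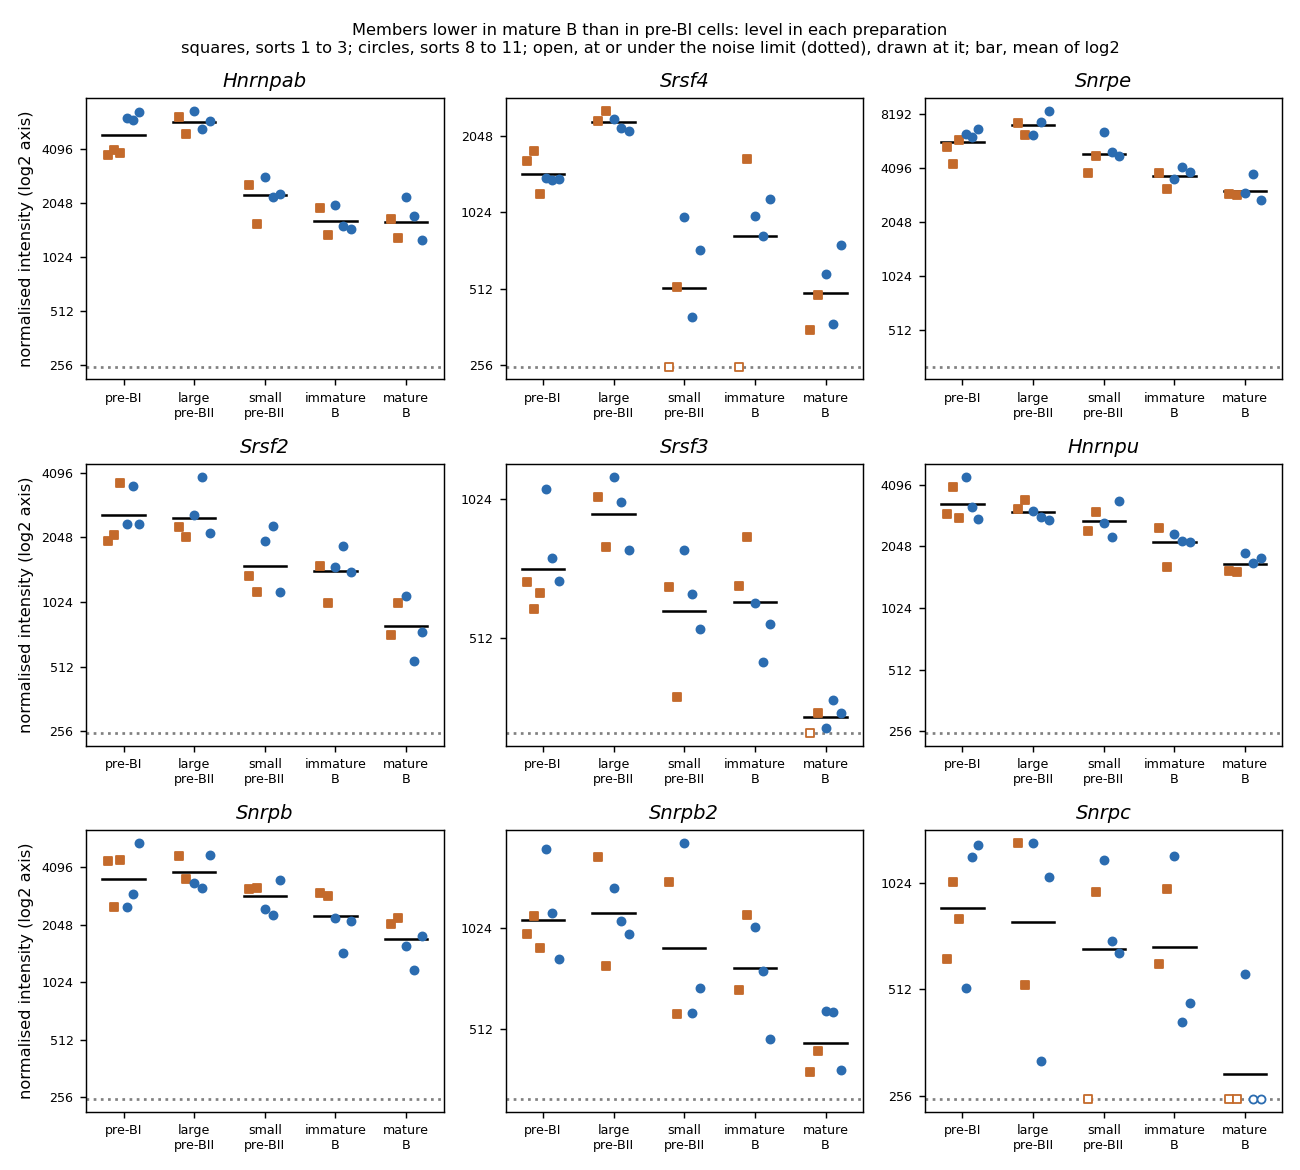
Normalised intensity (log2 axis) of the 9 members that fell between pre-BI and mature B cells, in each of the 26 preparations; squares are sorts 1 to 3, circles sorts 8 to 11, open symbols lie at or under the noise limit (dotted) and are drawn at it, and bars are means of log2 values. Hnrnpab and Srsf4 step down between large and small pre-BII cells, while Snrpc lies under the limit in 4 of 5 mature B preparations.

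Between pre-BI and large pre-BII cells, 0 of 34 members changed (limma), where 1.87% of all probe sets did. At an unadjusted p under 0.05 there were 2 members, both higher in large pre-BII cells, against 9.67% of all probe sets. The median log2 difference of the members was 0.06, against 0.00 over all probe sets tested. The closest was Sf3b1, the SF3B subunit that holds the branch point. It averaged 2408 ± 462 (SD, n = 6) in pre-BI cells and 3395 ± 483 (SD, n = 5) in large pre-BII cells, with an adjusted p of 0.338.

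The step from large to small pre-BII cells had the most falls of any consecutive step, among all probe sets as among members. Hnrnpab, Srsf4 and Snrpe fell, 3 of 34 (8.82%), where 3.27% of all probe sets and 6.42% of bright ones fell. All 3 were among the 28 bright members, a share not far above that of bright probe sets. Meanwhile 0 members rose, where 2.03% of all probe sets did. At an unadjusted p under 0.05 there were 7 members, all lower in small pre-BII cells, against 15.1% of all probe sets. The median log2 difference of the members was -0.41, against 0.06 over all probe sets tested, and 22 of 34 members had a difference below 0. Within sorts 1 to 3 alone 1 member fell (Hnrnpab), and within sorts 8 to 11 alone 2 did (Hnrnpab and Srsf4).

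Hnrnpab encodes an hnRNP A/B protein that binds RNA in the nucleus and in transport granules. In pre-BI cells its level ran from 3769 over a median of 4989 to 6510. In large pre-BII cells it was 6159 in sort 1, 4928 in sort 2, 6657 in sort 8, 5247 in sort 9 and 5829 in sort 10. In small pre-BII cells it was 2571 in sort 1, 1561 in sort 3, 2850 in sort 8, 2207 in sort 9 and 2282 in sort 10. Every large pre-BII preparation was thus above every small pre-BII preparation. The fall was 2.55-fold (log2 difference -1.35 ± 0.17 SE, adjusted p = 2.74e-05 by limma). The level stayed low after that. The immature B preparations read 1908 in sort 1, 1364 in sort 2, 1985 in sort 8, 1525 in sort 9 and 1456 in sort 11. The mature B preparations read 1655 in sort 1, 1300 in sort 3, 2192 in sort 8, 1723 in sort 9 and 1265 in sort 11. These groups overlapped, and neither the step to immature (adjusted p = 0.433) nor that to mature B cells (adjusted p = 1) passed the test. Among pre-BI cells, sorts 1 to 3 (3769 to 4038) lay under sorts 8 to 10 (5941 to 6510). Of the dimmer Hnrnpab probe sets, 2 fell at the same step, 2.52-fold (adjusted p = 0.00104) and 2.58-fold (adjusted p = 0.0105), and the remaining one was never above the noise limit.

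Srsf4 encodes an SR protein (SRp75). In pre-BI cells it ran from 1210 over a median of 1397 to 1799. The large pre-BII preparations read 2361 in sort 1, 2588 in sort 2, 2405 in sort 8, 2215 in sort 9 and 2148 in sort 10. In every one of them the level was above every pre-BI preparation, but the 1.60-fold difference had an adjusted p of 0.820. The small pre-BII preparations read 7.33 in sort 1, 518 in sort 3, 985 in sort 8, 396 in sort 9 and 724 in sort 10. All were below every large pre-BII preparation, and sort 1 was under the noise limit. The fall was 4.53-fold (log2 difference -2.18 ± 0.34 SE, adjusted p = 0.00197 by limma). Immature B cells were spread widely, at 94.3 in sort 1, 1664 in sort 2, 988 in sort 8, 823 in sort 9 and 1152 in sort 11. Mature B cells read 352 in sort 1, 483 in sort 3, 585 in sort 8, 369 in sort 9 and 763 in sort 11.

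Snrpe encodes SmE, a protein of the Sm ring. In pre-BI cells it ran from 4305 over a median of 5992 to 6820. Large pre-BII cells read 7326 in sort 1, 6280 in sort 2, 6280 in sort 8, 7399 in sort 9 and 8573 in sort 10. Small pre-BII cells read 3845 in sort 1, 4780 in sort 3, 6500 in sort 8, 5068 in sort 9 and 4806 in sort 10. Only sort 8 of the small cells reached into the range of the large cells. The fall was 1.44-fold (log2 difference -0.53 ± 0.15 SE, adjusted p = 0.0415 by limma). The call was lost in 7 of 26 fits that left out a preparation: large pre-BII sort 1, 9 or 10 or small pre-BII sort 1, 3, 9 or 10, with an adjusted p of up to 0.129. It was also lost in 7 of 13 other settings, among them trimmed-mean scaling (0.351), 75th-percentile scaling (0.128), values as deposited (0.543), within sorts 1 to 3 (0.408) and within sorts 8 to 11 (0.273). Immature B cells read 3868 in sort 1, 3148 in sort 2, 3557 in sort 8, 4168 in sort 9 and 3890 in sort 11, and mature B cells 2939 in sort 1, 2887 in sort 3, 2957 in sort 8, 3820 in sort 9 and 2731 in sort 11. Its probe set is of a kind that can also match close copies of the sequence, as are others of these families, so copies may contribute.

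Srsf2 and Srsf3 leaned the same way without passing. Srsf2, the SR protein SC35, averaged 2600 ± 768 (SD, n = 5) in large and 1581 ± 531 (SD, n = 5) in small pre-BII cells, with an adjusted p of 0.106. Srsf3, the SR protein SRp20, averaged 959 ± 152 and 602 ± 154 (SD, n = 5 each), and its preparations did not overlap, with an adjusted p of 0.134.

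**Figure D2:**
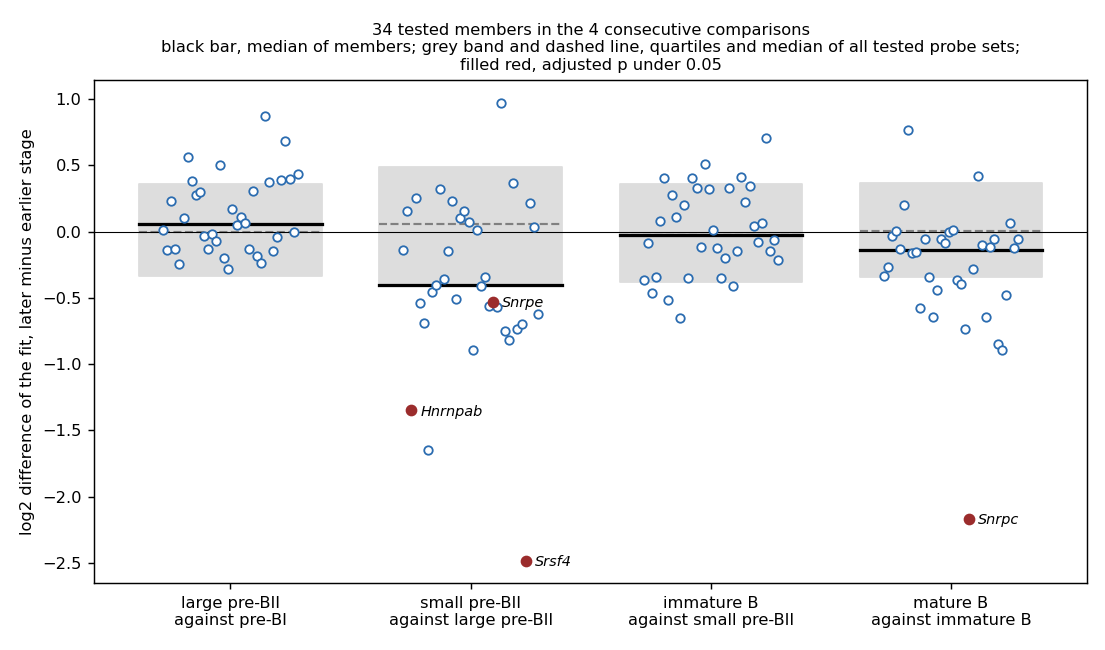
Log2 difference of the limma fit (later minus earlier stage) of each of the 34 tested members in the 4 consecutive comparisons; black bars are medians of the members, grey bands and dashed lines the quartiles and median of all probe sets tested, and filled red points passed an adjusted p of 0.05. The members' median lies at -0.41 between large and small pre-BII cells, and Hnrnpab, Snrpe, Srsf4 and, at the last step, Snrpc are the points that passed; the fit's differences use a lower floor than the folds in the text and are larger for Srsf4 and Snrpc.

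From small pre-BII to immature B cells, 0 of 34 members changed (limma), where 2.19% of all probe sets did. There were 2 members at an unadjusted p under 0.05, both lower in immature B cells, against 9.57% of all probe sets. The median difference was -0.03, against -0.02 over all probe sets tested, and 17 of 34 members lay below 0. With the sort number as a block, which is apt here because equal numbers deviated together, the count stayed 0, as it did between pre-BI and large pre-BII cells.

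From immature to mature B cells, Snrpc fell, 1 of 34, where 0.733% of all probe sets and 1.56% of bright ones fell, and 0 members rose, where 0.616% of all did. Snrpc encodes U1-C, which helps U1 hold the 5′ splice site. In immature B cells it read 605 in sort 1, 984 in sort 2, 1216 in sort 8, 415 in sort 9 and 469 in sort 11. In mature B cells it read -103 in sort 1, 204 in sort 3, 566 in sort 8, -3.37 in sort 9 and -72.9 in sort 11. Only sort 8 of the mature B cells was above the noise limit, and it lay among the immature B values. The log2 difference of the limma fit, with its lower floor, was -2.17 (adjusted p = 0.0447). With values raised to the noise limit the fall was 2.29-fold (log2 difference -1.19 ± 0.38 SE) and, in a fit to such values, the adjusted p was 0.157. The call was also lost in 17 of 26 fits that left out a preparation (up to 0.153, without immature B sort 8), within sorts 1 to 3 (0.511), within sorts 8 to 11 (0.402) and in 4 further settings of the 13 tried. In the earlier stages Snrpc ran from 518 over a median of 917 to 1308 in pre-BI cells. It read 1324 in sort 1, 525 in sort 2, 1321 in sort 8, 321 in sort 9 and 1062 in sort 10 of the large pre-BII cells. It read 71.5 in sort 1, 962 in sort 3, 1190 in sort 8, 699 in sort 9 and 648 in sort 10 of the small ones.

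At an unadjusted p under 0.05 there were 4 members at this last step, all lower in mature B cells, against 7.69% of all probe sets. Of the 34 differences 28 were below 0, with a median of -0.14 against 0.01 over all probe sets tested. Srsf2 averaged 1459 ± 304 in immature and 820 ± 223 in mature B cells (SD, n = 5 each), with an adjusted p of 0.133. Srsf3 ran from 453 over a median of 611 to 847 in immature B cells, above every mature B preparation, with an adjusted p of 0.0965 (limma). Srsf3 passed at this step with the floor at the 60th percentile (adjusted p = 0.0447) or at the noise limit (0.0325). With the sort number as a block Srsf2 passed as well (adjusted p = 0.0191), which makes 2 members.

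Over the whole course, mature B against pre-BI cells, 9 of 34 members (26.5%) fell, where 6.03% of all probe sets and 12.3% of bright ones fell, and 0 rose, where 4.78% of all did. At an unadjusted p under 0.05 there were 13 members, 12 of them lower, against 20% of all probe sets. All 9 were among the 28 bright members. The median log2 difference of the members was -0.44, against 0.04 over all probe sets tested, and 26 of 34 lay below 0. Within sorts 8 to 11 alone 8 members fell, and within sorts 1 to 3 alone 2 did (Hnrnpab and Srsf2). With the 2 groups of sorts as a block the count stayed 9.

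The SR proteins contributed 3 of the 9. Srsf2 ran from 1961 over a median of 2364 to 3680 in pre-BI cells. In mature B cells it read 715 in sort 1, 1011 in sort 3, 1086 in sort 8, 546 in sort 9 and 740 in sort 11, all below every pre-BI preparation. This was a 3.26-fold fall (log2 difference -1.71 ± 0.24 SE, adjusted p = 4.12e-06 by limma). Srsf3 ran from 591 over a median of 679 to 1080 in pre-BI cells. In mature B cells it read 256 in sort 1, 352 in sort 3, 326 in sort 8, 375 in sort 9 and 351 in sort 11, close to the noise limit and below every pre-BI preparation. The fall was 2.11-fold (log2 difference -1.07 ± 0.13 SE, adjusted p = 0.00141). Srsf4, whose values are given above, was 2.98-fold lower in mature B than in pre-BI cells (adjusted p = 0.0392), a call lost in 9 of 26 fits that left out a preparation (pre-BI sort 1, 2, 8, 9 or 10 or mature B sort 1, 3, 8 or 9, up to 0.0983 without mature B sort 1) and in 5 of 13 other settings.

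The other 5 tested Srsf genes did not change. Srsf6 (SRp55) averaged 1396 ± 401 (SD, n = 6) in pre-BI and 1222 ± 226 (SD, n = 5) in mature B cells, and its highest and lowest population means differed 1.14-fold (adjusted p = 0.983 by limma's F test). Srsf11, a factor of the SR family, averaged 4467 ± 914 (SD, n = 6) and 5129 ± 804 (SD, n = 5), with a 1.33-fold range of means (adjusted p = 0.616 by limma's F test). Both overlapped across all populations. Srsf1, Srsf5 and Srsf10 were the remaining 3. The brightest Srsf1 probe set did not vary (adjusted F p = 0.448), while a dimmer one on the b set did (adjusted F p = 0.0475) without passing in any of the 5 comparisons.

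The snRNP proteins contributed 4 of the 9. Snrpe fell 1.89-fold (log2 difference -0.92 ± 0.13 SE, adjusted p = 3.95e-05 by limma), with every mature B preparation below every pre-BI preparation. Snrpb, the SmB protein of the ring, ran from 2538 over a median of 3679 to 5467 in pre-BI cells. In mature B cells it read 2064 in sort 1, 2227 in sort 3, 1580 in sort 8, 1183 in sort 9 and 1794 in sort 11, again with no overlap, and it fell 2.06-fold (adjusted p = 0.00144). Its means were 3728 ± 1222 in pre-BI cells, 3903 ± 750 in large pre-BII cells, 2927 ± 514 in small pre-BII cells, 2344 ± 626 in immature B cells and 1770 ± 411 in mature B cells (SD, n = 6 and then 5 each), and no consecutive step passed. A second Snrpb probe set was above the noise limit in 1 preparation.

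Snrpb2, the U2-B″ protein of the U2 snRNP, ran from 826 over a median of 1047 to 1747 in pre-BI cells. In mature B cells it read 383 in sort 1, 442 in sort 3, 580 in sort 8, 575 in sort 9 and 389 in sort 11. The groups did not overlap, and the fall was 2.32-fold (log2 difference -1.22 ± 0.20 SE, adjusted p = 0.00646 by limma). Snrpc fell 2.93-fold with values raised to the noise limit. Its log2 difference in the limma fit, with the lower floor, was -2.52 (adjusted p = 0.00115). Sort 8 of the mature B cells, at 566, lay within the pre-BI range of Snrpc.

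Snrpg, the SmG protein of the ring, had a different course. Its mean was 4852 ± 1527 (SD, n = 6) in pre-BI cells. The large and small pre-BII means were 4209 ± 1045 and 2965 ± 1133, and the immature and mature B means 2549 ± 699 and 3365 ± 561 (SD, n = 5 each). It varied over the 5 populations (adjusted F p = 0.0490), in none of the 5 comparisons, and the F call was lost in 19 of 26 fits that left out a preparation (up to 0.109, without pre-BI sort 3) and in 9 of 13 other settings. Snrpa, a U1 protein, and Snrpn, an Sm protein close to SmB, did not change, and Snrpn was above the noise limit in 2 preparations. Snrpa1, the U2-A′ protein, was above it in none.

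**Figure D3:**
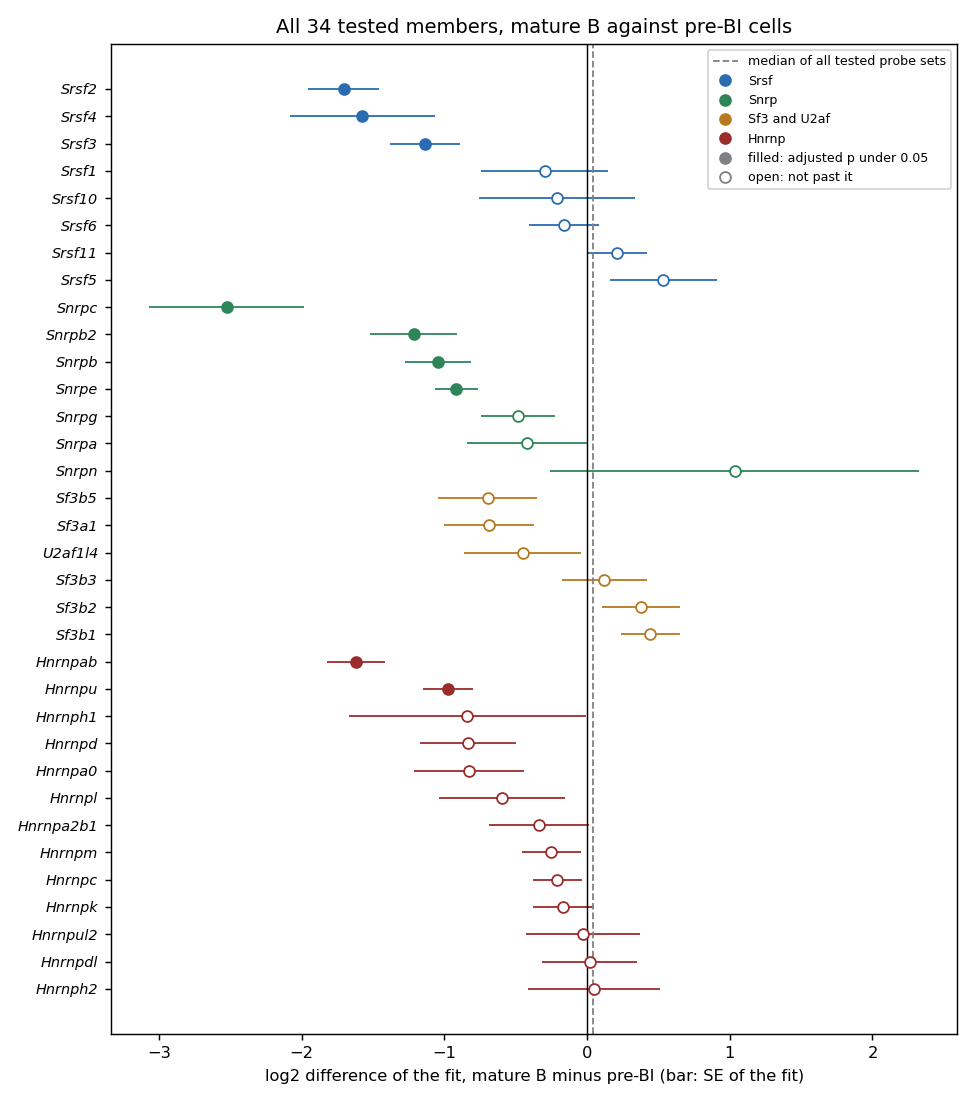
Log2 difference of the limma fit, mature B minus pre-BI cells, for all 34 tested members ordered by family, with bars of 1 SE; filled points passed an adjusted p of 0.05, and the dashed line is the median of all probe sets tested. The 9 filled points are all below 0 and none belongs to the Sf3 and U2af family; Snrpn, with the highest difference, has a wide bar and lies under the noise limit in most preparations.

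Among factors of 3′ splice site and branch point recognition, 0 of 6 tested Sf3 and U2af genes varied in the fit over all preparations. Sf3b1, whose first 2 stages are given above, averaged 3728 ± 1065 in small pre-BII cells, 3448 ± 975 in immature B cells and 3280 ± 657 in mature B cells (SD, n = 5 each). Mature B cells were thus 1.36-fold above pre-BI cells, with an adjusted p of 0.214, and the groups overlapped. A dimmer Sf3b1 probe set differed by sorts. In pre-BI cells it read 858 to 2002 in sorts 1 to 3 and 203 to 471 in sorts 8 to 10. In mature B cells it read 1236 to 2169 in sorts 1 and 3 and 168 to 470 in sorts 8 to 11. Sf3b3, another SF3B subunit, averaged 1546 ± 535 (SD, n = 6) in pre-BI and 1648 ± 442 (SD, n = 5) in mature B cells, and its population means differed 1.32-fold at most. Sf3b5, a small SF3B subunit, averaged 1320 ± 336 (SD, n = 6) in pre-BI cells and 1480 ± 321 in large pre-BII cells. Its later means were 898 ± 467 in small pre-BII cells, 891 ± 440 in immature B cells and 816 ± 208 in mature B cells (SD, n = 5 each). The adjusted F p of Sf3b5 was 0.152, and sort 1 of the small pre-BII (322) and immature B cells (328) was its lowest value in each. Sf3a1, Sf3b2 and U2af1l4 did not change either in the fit over all preparations. Within sorts 8 to 11 alone Sf3b2 varied (adjusted p = 0.0439 by limma's F test). Over all preparations the Sf3b2 mean was highest in immature B and lowest in large pre-BII cells. U2af2, the large subunit of U2AF, was above the noise limit in 0 preparations, so no level can be given for it.

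The hnRNP genes contributed the other 2 of the 9. Hnrnpab fell 3.07-fold from pre-BI to mature B cells (log2 difference -1.62 ± 0.21 SE, adjusted p = 2.22e-07 by limma), and the groups did not overlap. Hnrnpu, a large nuclear matrix hnRNP that binds RNA and chromatin, ran from 2786 over a median of 3076 to 4485 in pre-BI cells. In mature B cells it read 1546 in sort 1, 1535 in sort 3, 1898 in sort 8, 1699 in sort 9 and 1794 in sort 11, below every pre-BI preparation. The fall was 1.97-fold (log2 difference -0.97 ± 0.13 SE, adjusted p = 1.20e-04). Its means went from 3377 ± 711 (SD, n = 6) in pre-BI over 3043 ± 268, 2765 ± 465 and 2165 ± 334 to 1694 ± 157 (SD, n = 5 each) in mature B cells. No consecutive step of Hnrnpu passed.

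The other 11 tested Hnrnp genes did not change. Hnrnpc, which binds uridine tracts of new transcripts, averaged 5883 ± 639 (SD, n = 6) in pre-BI and 5096 ± 665 (SD, n = 5) in mature B cells, and its population means differed 1.27-fold at most (adjusted p = 0.597 by limma's F test). Among its other probe sets, 2 dimmer ones were lower in mature B than in pre-BI cells (adjusted p = 0.0480 and 0.0392). Hnrnpm averaged 6259 ± 1225 (SD, n = 6) and 5294 ± 1214 (SD, n = 5), with a 1.31-fold range of means. Hnrnpll, whose product is known to act on CD45 exons in lymphocytes, was above the noise limit in 1 preparation and was not tested.

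The 17 tested members not described with values were Hnrnpa0, Hnrnpa2b1, Hnrnpd, Hnrnpdl, Hnrnph1, Hnrnph2, Hnrnpk, Hnrnpl, Hnrnpul2, Sf3a1, Sf3b2, Snrpa, Snrpn, Srsf1, Srsf5, Srsf10 and U2af1l4. Their highest and lowest population means differed by 1.04-fold to 2.34-fold, and 6 of the 17 lay above the noise limit in all preparations.

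Of a list of 130 other genes of the spliceosome, its regulators and nuclear RNA binding, 78 were on the arrays and 75 were tested. Between large and small pre-BII cells 2 of 75 rose and 6 fell. Of all probe sets 2.03% rose and 3.27% fell, and of bright ones 6.42% fell. Clk1, a kinase that phosphorylates SR proteins, rose 2.36-fold (log2 difference 1.24 ± 0.23 SE, adjusted p = 2.58e-04 by limma). It ran from 1348 to 1954 in large pre-BII (n = 5) and from 2801 to 5859 in small pre-BII cells (n = 5), with no overlap. It was the 1 gene of the list that rose from pre-BI to mature B cells, 3.03-fold, while 12 of 75 fell. Of all probe sets 4.78% rose and 6.03% fell, and of bright ones 12.3% fell. Rbm39, an SR-like splicing factor named here after its values were seen, rose 1.66-fold in small pre-BII cells (adjusted p = 0.0269).

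The 6 that fell at this step were Alyref, Ddx39a, Ewsr1, Ncl, Rnps1 and Sart3. Alyref, an adaptor of mRNA export, fell 2.61-fold, from a mean of 3284 ± 1124 to 1318 ± 571 (SD, n = 5 each, adjusted p = 0.00452). Ddx39a, an RNA helicase of the same export pathway, fell 2.33-fold, from 1971 ± 474 to 914 ± 429 (adjusted p = 0.0186). Ewsr1, an RNA-binding protein of the FET family, fell 2.01-fold, from 1125 ± 202 to 566 ± 143 (adjusted p = 0.0220).

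From small pre-BII to immature B cells Rbm17 and Sfpq fell and 0 rose, 2 of 75, where 2.19% of all probe sets changed. Rbm17, a factor of alternative 3′ splice site choice, fell 1.79-fold, from 3629 ± 421 to 2042 ± 400 (SD, n = 5 each, adjusted p = 0.00260). Sfpq, a paraspeckle protein, fell 1.86-fold, from 4022 ± 640 to 2153 ± 240 (adjusted p = 0.0107). In the first and the last consecutive comparison 0 of 75 changed. The median differences of the list were 0.16, -0.10, -0.02 and -0.16 in the 4 consecutive comparisons and -0.14 in mature B against pre-BI cells.

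**Figure D4:**
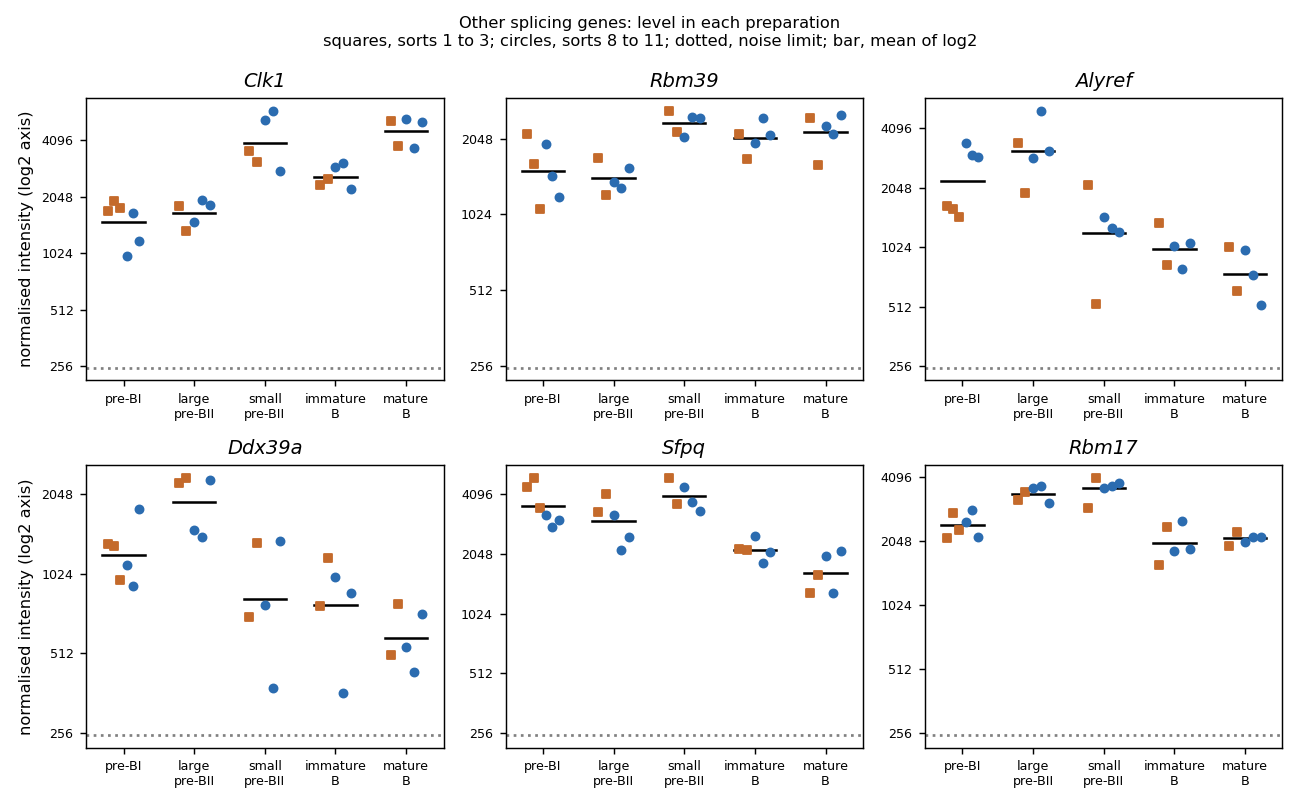
Normalised intensity (log2 axis) of Clk1, Rbm39, Alyref, Ddx39a, Sfpq and Rbm17 in each of the 26 preparations, with symbols, noise limit (dotted) and bars (means of log2 values) as for the members. Clk1 and Rbm39 step up and Alyref and Ddx39a step down between large and small pre-BII cells, while Sfpq and Rbm17 step down at the immature B stage.

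Genes of the cell cycle fell at the step at which Hnrnpab, Srsf4 and Snrpe, 3 of 34 members, fell. Of 25 proliferation genes tested, 24 fell between large and small pre-BII cells (median log2 difference -2.67), 3 rose between pre-BI and large pre-BII cells (median 0.73) and 23 fell from pre-BI to mature B cells (median -3.0). This list was chosen with earlier results of these data known. Its summed level was 53329 to 70225 in the pre-BI preparations. It was 88928 to 103524 in the large and 9010 to 20627 in the small pre-BII preparations, and 8041 to 10227 and 6995 to 8801 in the immature and mature B preparations. Its part in the result was not tested.

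Pre-BI and mature B cells carried the markers of their labels, and the populations also held some markers of other cells. The lists held no markers particular to the pre-BII or immature B stages. The sum of 6 B lineage genes (of 7 listed) ran from 8843 to 16651 in pre-BI and from 29283 to 36662 in mature B cells. The 4 genes of the surrogate light chain and pre-BI stage summed to 12947 to 20297 in pre-BI and 174 to 418 in mature B cells, and the 5 mature B genes to 2957 to 6783 and 50267 to 58424. The 11 granulocyte genes summed to 6292 to 20601 in pre-BI cells, to 4286 to 10924 and 3947 to 5757 in the large and small pre-BII stages and to 5385 to 7753 and 7387 to 11658 in the immature and mature B stages, with Ctsg, Ltf and Mpo never above the noise limit. The 6 erythroid genes ran from 7349 to 22545 over all preparations (small pre-BII at most 16079, mature B at least 16460), and Epor was never above the limit. The 9 T and NK genes summed to 1275 to 3282 in pre-BI and at most 1304 elsewhere, with Cd3d, Cd3g, Cd8a and Gzmb never above the limit. The 5 macrophage and dendritic genes reached at most 992 (Adgre1, C1qa and Csf1r never above the limit) and the 4 plasma cell genes at most 957 (Sdc1 never above it). Their part in the results was not tested. An 18S ribosomal RNA control of the arrays read 156 to 18619 on the arrays of the first set from sorts 1 to 3 and -224 to 68 on those of sorts 8 to 11. On the b set it read -39 to 16530 (median 9359) and -39 to 263 (median 32), so these ranges overlapped. The part of this difference in the results was not tested.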

How the data were processed

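The authors' deposited values are 1 intensity per probe set and array, linear and partly negative, in 2 tables; scanning, summary and scaling were not given in the sources used here. Symbols follow GEO's array annotation, promoters RefSeq (GRCm38.p6). A second mature B array of sort 1 (first set) equalled mature B sort 11 in all 6584 values and was kept once, as sort 11, leaving 54 of 55 arrays; other second arrays were averaged with the first.

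Without control probe sets, arrays were quantile-normalised per table (their trimmed means differed 5.60-fold and 4.22-fold). Values were raised to the 40th percentile of their table (87.6 and 6.89) before log2. The 5019 and 5210 probe sets above it in 5 or more preparations were tested in 1 fit per table over all 26 preparations (limma 3.58.1, R 4.3.3, eBayes with trend), adjusted by Benjamini-Hochberg over both tables. The fit was tested on simulated data with independent preparations and changes planted only in bright probe sets of low spread. Changes in dim probe sets and shared deviations of equal sort numbers were not covered. The noise limit is 2 robust standard deviations of the negative values.

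The members and lists were chosen with earlier results of these data known. Members were named if past an adjusted p of 0.05 anywhere; each family added the 2 with the lowest F test p and the 2 with the smallest range of means among those above noise everywhere. Of the other splicing genes, up to 4 past the threshold per consecutive comparison were described.

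Preparations of equal sort number deviated together in every pair for pre-BI with large pre-BII (correlation 0.11 to 0.30, 5 pairs), small pre-BII with immature B (0.14 to 0.25, 3 pairs) and immature with mature B cells (0.12 to 0.21, 4 pairs), and not in every pair elsewhere. Whether a number stands for a shared day or animal is not in the labels used here.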

Additional observations from a re-analysis of the deposited data

Results flagged for a closer look

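Of 80 groups of 5 or 6 preparations examined for the named members, 1 had a preparation that stood apart, where about 1 in 20 would by chance. Snrpe in mature B cells read 3820 in sort 9, while the other 4 preparations lay between 2731 and 2957. Sort 9 was still below every pre-BI preparation of Snrpe.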

How the results depend on the processing

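Of 299 values of 23 gene results under other settings, 239 kept direction and side of the threshold, 60 were no longer past it, and 0 reversed. Of 598 values that left out a preparation, 543 kept both and 55 were no longer past it. With values as deposited the members past the threshold numbered 4 over the 5 populations (10 in the main fit), 0 in small against large pre-BII (3), 0 in mature against immature B (1) and 3 in mature B against pre-BI cells (9). Within sorts 1 to 3 they were 1, 1, 0 and 2. Mature against immature B gave 0 also within sorts 8 to 11, without a trend in eBayes and when 1 preparation above the floor sufficed for testing. With the floor at the 60th percentile or at the noise limit its count stayed 1 by exchange: Snrpc no longer passed (adjusted p = 0.193 and 0.157), and Srsf3 did (0.0447 and 0.0325). With the sort number as a replicate block it gave 2, and the block changed no other count by over 1.5 times, though Srsf2 fell in small pre-BII cells too (adjusted p = 0.0165). Leaving out 1 preparation at a time gave 8 to 10, 2 to 3, 0 to 1 and 8 to 9, and Snrpb2 lost its F call in 3 fits (up to 0.0668, without mature B sort 11). The comparisons with 0 calls stayed at 0 throughout. With the floor at the noise limit Srsf3 passed in small against large pre-BII (adjusted p = 0.0407). The cause was not tested. Signal over background limits the dim members: 40% of first-set and 20.1% of b-set values exceeded the noise limit.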

Other observations

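The 8 probe sets that carried several symbols, at least 1 of them from these families, were not counted above. Of these, 7 were tested and 4 varied over the 5 populations. In small against large pre-BII cells 2 were lower, in mature B against pre-BI cells 4 were lower, and 0 were higher in any of the 5 comparisons at an adjusted p under 0.05 (limma). The 4 that varied and the 4 that were lower are not the same probe sets: 1 that varied (adjusted p = 0.0259 by the F test) had log2 differences of the fit of 2.91 in small against large pre-BII (adjusted p = 0.159) and 3.05 in mature B against pre-BI cells (adjusted p = 0.0664). The median log2 differences of the 7 in these 2 comparisons were -0.12 and -0.92.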
